A study of Mus musculus with 2 samples.

Results

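The genes described here build and cross-link elastic fibres in the wall of the mouse aorta. They are Eln, Fbn1, Fbln1, Fbln2, Fbln5, Efemp1, Emilin1, Mfap4, Lox and Loxl1, and they were found by symbol as 10 of the 55450 gene rows of the count matrices. Single cells were profiled by 3' end RNA-seq from the aorta of Apoe-/- mice, which lack apolipoprotein E and have high plasma cholesterol. The mice were 12 weeks old and had an abdominal aortic aneurysm induced with angiotensin II (Ang II), a peptide hormone that raises blood pressure. One library came from tissue given an inhibitor and the other from tissue given DMSO, the solvent, so that genotype, age, Ang II and aneurysm are shared by both. The groups were read from the initials of the sample titles and the series design. The name and dose of the inhibitor, the number of animals behind each library and the aortic segment that each cell came from are not stated by the labels. Each group holds 1 library. There is no replicate, no test was run, and every interval below covers counting error only.

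Elastic fibres give large arteries their recoil. Cells secrete tropoelastin, the product of Eln, onto microfibrils built mainly of fibrillin-1, the product of Fbn1. Fibulins, emilins and microfibril-associated proteins guide its deposition, and copper-dependent lysyl oxidases join the deposited molecules into an insoluble polymer. Smooth muscle cells of the media make most of the elastin of the growing aorta, and fragmentation of the elastic lamellae is a hallmark of aortic aneurysm.

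After filtering, the inhibitor library held 7417 cells with a median of 8991 unique molecular identifiers (UMIs, each a captured transcript), and the DMSO library held 8411 cells with a median of 7935 UMIs. Of the cell barcodes, 16 occurred in both libraries. Clusters were named from marker genes, with the 10 genes and the markers left out of the clustering. Smooth muscle-like cells made up 42.0% of inhibitor cells (3112 cells, 40.8% to 43.1% by the exact Clopper-Pearson 95% interval) and 9.46% of DMSO cells (796 cells, 8.85% to 10.1%). Fibroblast-like cells numbered 1804 in the inhibitor library, against 1996 in the DMSO library, and endothelial-like cells numbered 491 in the inhibitor library, against 787 in the DMSO library. All 9 smooth muscle, 10 fibroblast and 8 endothelial markers were detected in their own class in both libraries. The classes were named from these markers, so their detection is no check of the names. All 8 endothelial markers were also detected in smooth muscle-like cells of both libraries. The clusters that filled each class differed between the libraries, and they are named beside the results they touch.

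Levels are given as UMIs scaled to a class total of 1000000 (CPM). Because each captured transcript end is counted once, these values are not scaled by gene length and are compared between cells for the same gene. Of the 10 genes, 8 had their highest mean level in fibroblast-like cells, 1 in smooth muscle-like cells and 1 in endothelial-like cells, among the 6 classes that had 100 or more cells in both libraries.

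Eln (ENSMUSG00000029675, chr5:134702593-134747323, minus strand, GRCm38), which encodes elastin, was highest in smooth muscle-like cells, at 2628 CPM in the inhibitor library and 5655 CPM in the DMSO library. Endothelial-like cells came second, at 2089 CPM in the inhibitor library and 1107 CPM in the DMSO library. Fibroblast-like cells followed, at 1539 CPM in the inhibitor library and 886 CPM in the DMSO library. In both libraries smooth muscle-like cells ranked first. They held 69.7% of all Eln UMIs of the inhibitor library and 58.1% of those of the DMSO library, while fibroblast-like cells held 22.7% in the inhibitor library, against 27.1% in the DMSO library. Endothelial-like cells held 4.56% of the Eln UMIs in the inhibitor library, against 6.66% in the DMSO library.

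Fbn1 (ENSMUSG00000027204, chr2:125300594-125507993, minus strand), the microfibril scaffold, was highest in fibroblast-like cells, at 583 CPM in the inhibitor library and 986 CPM in the DMSO library. Smooth muscle-like cells had 174 CPM of Fbn1 in the inhibitor library and 340 CPM in the DMSO library. Endothelial-like cells had 44.6 CPM in the inhibitor library and 138 CPM in the DMSO library. The order of the 3 classes was thus the same in both libraries.

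The fibulins, extracellular proteins that bind tropoelastin, basement membranes or microfibrils, came from different cells. Fbln1 (ENSMUSG00000006369, chr15:85205949-85286535, plus strand) was mostly a fibroblast transcript: fibroblast-like cells held 95.9% of its UMIs in the inhibitor library, against 91.4% in the DMSO library. Efemp1 (ENSMUSG00000020467, chr11:28853204-28926743, plus strand), encoding fibulin-3, had 70.6% of its UMIs in fibroblast-like cells of the inhibitor library and 61.2% in those of the DMSO library. Adipocyte-like cells held a further 12.1% of the inhibitor library's Efemp1 UMIs and 31.1% of the DMSO library's, and numbered 84 inhibitor cells and 840 DMSO cells. Adipocyte-like cells are outside the 6 ranked classes, and their Efemp1 level was above that of fibroblast-like cells, at 154 CPM in the inhibitor library and 271 CPM in the DMSO library. Fibroblast-like cells had 66.1 CPM in the inhibitor library and 210 CPM in the DMSO library. Fbln2 (ENSMUSG00000064080, chr6:91212455-91272540, plus strand) was close in 2 classes. Fibroblast-like cells had 440 CPM of Fbln2 in the inhibitor library and 667 CPM in the DMSO library, and endothelial-like cells had 565 CPM in the inhibitor library and 527 CPM in the DMSO library, so the order of these classes differed between the libraries.

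Fbln5 (ENSMUSG00000021186, chr12:101746565-101819055, minus strand), a fibulin needed for elastic fibre assembly in mice, spread over all 3 classes. It was at 741 CPM in endothelial-like cells of the inhibitor library and 615 CPM in those of the DMSO library. Smooth muscle-like cells had 465 CPM of Fbln5 in the inhibitor library and 702 CPM in the DMSO library. Fibroblast-like cells had 612 CPM in the inhibitor library and 248 CPM in the DMSO library. The top class was endothelial-like in the inhibitor library and smooth muscle-like in the DMSO library.

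Emilin1 (ENSMUSG00000029163, chr5:30913402-30921277, plus strand), a glycoprotein at the interface of elastin and microfibrils, was at 118 CPM in fibroblast-like cells of the inhibitor library and 154 CPM in those of the DMSO library. Smooth muscle-like cells had 97.0 CPM in the inhibitor library and 156 CPM in the DMSO library, so the order of the classes changed between the libraries here too. Mfap4 (ENSMUSG00000042436, chr11:61485431-61488900, plus strand), a microfibril-associated protein that binds tropoelastin, was highest in fibroblast-like cells, at 975 CPM in the inhibitor library and 570 CPM in the DMSO library. Its level in smooth muscle-like cells was 363 CPM in the inhibitor library and 303 CPM in the DMSO library.

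The cross-linking enzymes were shared by mural cells and fibroblasts. Lox (ENSMUSG00000024529, on chromosome 18), lysyl oxidase, was at 305 CPM in fibroblast-like cells of the inhibitor library and 482 CPM in those of the DMSO library. Smooth muscle-like cells had 239 CPM of Lox in the inhibitor library and 419 CPM in the DMSO library. Loxl1 (ENSMUSG00000032334, chr9:58287738-58313186, minus strand), which is needed for elastic fibre renewal in adult mice, was at 427 CPM in fibroblast-like cells of the inhibitor library and 477 CPM in those of the DMSO library. Smooth muscle-like cells had 277 CPM of Loxl1 in the inhibitor library and 300 CPM in the DMSO library. In endothelial-like cells Lox had 117 CPM in the inhibitor library and 97.3 CPM in the DMSO library, and Loxl1 had 18.5 CPM in the inhibitor library and 43.1 CPM in the DMSO library. Eln, Fbn1, Mfap4 and Lox overlap a gene on the other strand (Gm30003, Gm9913, Mapk7 and AC161119.1), and the use of strand in counting is not stated, so their reads could include some of that gene's.

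**Figure D1:**
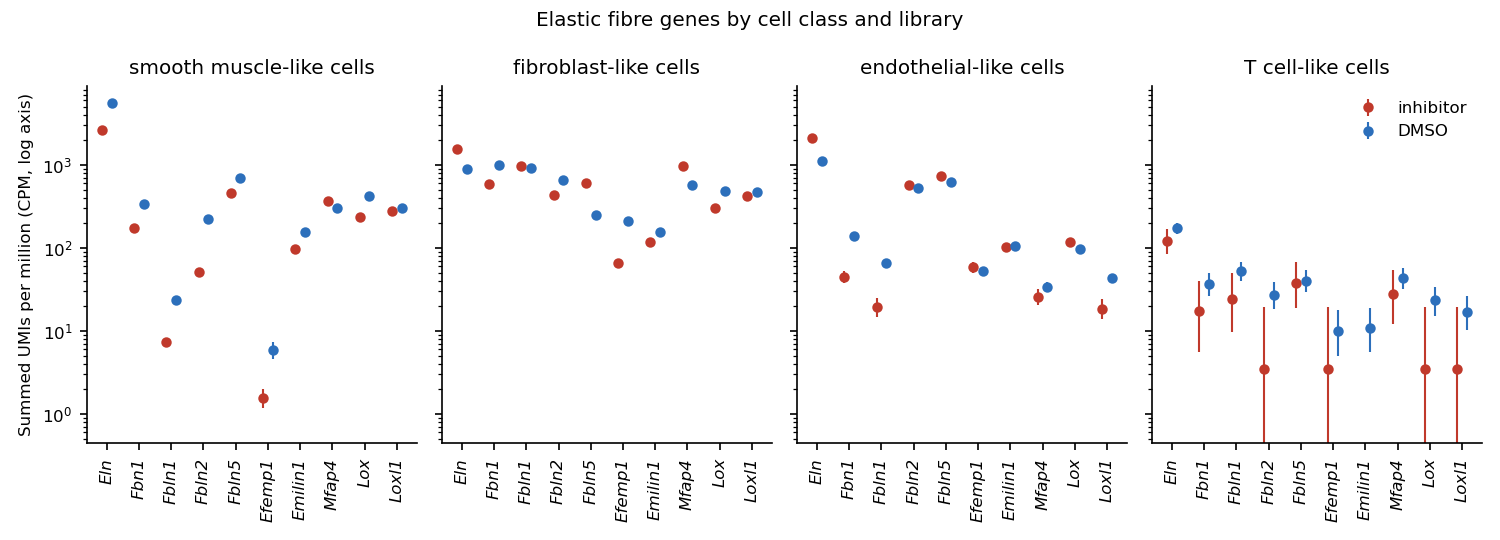
Summed UMIs scaled to CPM (log axis) of each elastic fibre gene in 4 cell classes, with the inhibitor library in red and the DMSO library in blue. Points are 1 library each and bars are exact Poisson 95% intervals for counting error; Emilin1 had no UMI in T cell-like cells of the inhibitor library and has no point there. Eln is at 2628 and 5655 CPM in smooth muscle-like cells of the inhibitor and DMSO libraries and at 121 and 172 CPM in T cell-like cells.

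Free RNA in the suspension gives UMIs to cells that do not express a gene, and T cell-like cells were taken as the measure of it. T cell-like cells had 121 CPM of Eln in the inhibitor library and 172 CPM in the DMSO library. Other classes gave other values, so the measure depends on the class taken. Neutrophil-like cells had 449 CPM (45 UMIs) in the inhibitor library and 298 CPM (140 UMIs) in the DMSO library. Macrophage-like cells had 94.0 CPM in the inhibitor library and 217 CPM in the DMSO library. An Eln UMI was found in 38.8% of inhibitor T cell-like cells and 45.2% of DMSO T cell-like cells, at medians of 4008 and 4059 UMIs per cell. In smooth muscle-like cells the share was 98.5% in the inhibitor library, against 97.4% in the DMSO library, at medians of 11258.5 and 14185 UMIs. With each cell thinned to 2000 UMIs, 86.6% of inhibitor and 86.8% of DMSO smooth muscle-like cells held Eln, against 19.0% and 23.4% of T cell-like cells in the same libraries. The 10 genes were therefore called measured in a class only at 20 CPM or more in 1 library and 20% or more of the CPM in its top class. Meeting the second condition in 1 library was enough. All 10 passed in fibroblast-like cells, 8 in smooth muscle-like cells and 6 in endothelial-like cells. Fbln1 and Efemp1 failed in smooth muscle-like cells. Fbn1, Fbln1, Mfap4 and Loxl1 failed in endothelial-like cells. In 3 cases the second condition was met in 1 library only, so that being measured rested on that library. These were Fbln2 in smooth muscle-like cells, through the DMSO library, and Eln in fibroblast-like and endothelial-like cells, through the inhibitor library. For Eln the level of its top class, smooth muscle-like cells, also differed between the libraries.

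Schwann-like cells, which sheathe peripheral nerve fibres, had 1602 CPM of Eln in the inhibitor library and 362 CPM in the DMSO library. Of their thinned Eln UMIs, 75.2% of the inhibitor library's and 55.5% of the DMSO library's lay in the top 5% of cells, and the median Schwann-like cell held none in either library. These levels are those of a few cells, and the class is not compared further.

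In smooth muscle-like cells, 6 of the 8 measured genes were lower in the inhibitor library by at least 1.5-fold, which is the rule used throughout for calling a gene lower or higher, and none was higher. Among all 5953 genes measured in this class, 5.98% were lower and 3.65% were higher. The median log2 ratio of inhibitor to DMSO was -0.75 over the 8 genes and -0.04 over all measured genes. The genes called lower were Eln, Fbn1, Fbln2, Fbln5, Emilin1 and Lox. Of these, Fbln2 was measured through the DMSO library only, where it is high, and it is part of the count and the median. Mfap4 and Loxl1 stayed within 1.5-fold.

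The elastin gene had a ratio of 0.465 (95% interval 0.460 to 0.469) from 2628 CPM in the inhibitor library and 5655 CPM in the DMSO library. Fbn1 had a ratio of 0.512 (0.493 to 0.532). Fbln2 was furthest apart, at 51.6 CPM in the inhibitor library and 222 CPM in the DMSO library, which gives a ratio of 0.233 (0.219 to 0.246). Fbln2 UMIs were found in 19.5% of smooth muscle-like cells of the inhibitor library and 45.7% of those of the DMSO library, and in T cell-like cells the shares were 1.49% and 8.37%. Fbln5 had a ratio of 0.662 (0.645 to 0.679), Emilin1 of 0.620 (0.587 to 0.655) and Lox of 0.571 (0.552 to 0.591). The ratio was 1.20 (1.16 to 1.24) for Mfap4 and 0.923 (0.889 to 0.959) for Loxl1. For Mfap4 the direction of the class was not that of its clusters, which are given below. The summed fibroblast marker list was also lower in these cells, at 3788 CPM in the inhibitor library and 9914 CPM in the DMSO library, with 9 of its 10 genes lower. The smooth muscle list was at 44510 CPM in the inhibitor library and 31940 CPM in the DMSO library, with 2 of 9 genes higher. The part of these in the ratios was not tested.

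The class ratios moved with 1 cluster. The smooth muscle-like class was made of clusters 0, 1 and 10. Cluster 10, with Igfbp2, Actg2 and Des among its leading genes, held 16.6% of the class in the inhibitor library (517 cells), against 53.1% in the DMSO library (423 cells). In cluster 10, Eln was at 3650 CPM in the inhibitor library and 7672 CPM in the DMSO library. In cluster 0 it was at 2298 CPM in the inhibitor library and 2777 CPM in the DMSO library, and in cluster 1 at 2462 CPM in the inhibitor library and 2622 CPM in the DMSO library. For Eln, clusters 0 and 1 thus differed little between the libraries, and the difference was widest in cluster 10. That cluster held 28.3% of the Eln UMIs of the class in the inhibitor library, against 80.7% in the DMSO library. For Fbln2 its share was 57.7% in the inhibitor library, against 90.9% in the DMSO library, and for Lox 29.2% in the inhibitor library, against 78.9% in the DMSO library. Cells of cluster 10 held more UMIs each, on average, than the class in both libraries, so shares of UMIs and of cells differ in basis. Without cluster 10, none of the genes was called lower in the smooth muscle-like class, and the log2 ratio of Eln was -0.18. Fbln2 then lost its call because it no longer met the condition for being measured: its ratio stayed past 1.5-fold in cluster 0 (0.471) and in cluster 1 (0.636). Emilin1 had ratios of 0.641 in cluster 0, past 1.5-fold, 0.760 in cluster 1 and 0.744 in cluster 10. Mfap4, at 1.20 in the class, had ratios of 0.970 in cluster 0, 0.851 in cluster 1 and 0.66 in cluster 10. None of these clusters thus had the direction of the class for Mfap4.

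A finer clustering, at resolution 2, split a group of elastin-rich cells from cluster 10. It is cluster 23 of that clustering, with Igfbp2, Tnfrsf11b, Hs6st2, Eln, Frzb, Acan and Ltbp2 at its head. It held 105 smooth muscle-like cells of the inhibitor library and 215 of the DMSO library, 3.37% and 27.0% of the class in those libraries. Of its 320 cells, 318 came from cluster 10. Its cells had 7275 CPM of Eln in the inhibitor library and 10970 CPM in the DMSO library, which gives a ratio of 0.663 (0.651 to 0.675). They carried 15.6% of the Eln UMIs of all smooth muscle-like cells in the inhibitor library, against 66.1% in the DMSO library. Cells of cluster 23 held more UMIs each, on average, than the class in both libraries. A gene at an even level would thus also have a larger share of its UMIs there than the share of cells.

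Fbln2, Lox, Fbn1, Fbln5 and Emilin1 also gathered in cluster 23. Cluster 23 held 43.9% of the smooth muscle Fbln2 UMIs in the inhibitor library, against 83.7% in the DMSO library. It held 15.5% of Lox in the inhibitor library, against 64.3% in the DMSO library, 15.8% of Fbn1 in the inhibitor library, against 60.1% in the DMSO library, and 10.3% of Fbln5 in the inhibitor library, against 54.6% in the DMSO library. For Emilin1 the share was 12.8% in the inhibitor library, against 46.6% in the DMSO library. Loxl1 was nearer to an even level, at 341 CPM in cluster 23 of the inhibitor library and 378 CPM in that of the DMSO library. Its levels in the whole class were 277 CPM and 300 CPM. Mfap4 did not follow: cluster 23 held 2.24% of the Mfap4 UMIs in the inhibitor library, against 15.1% in the DMSO library, below the cluster's share of cells. The contractile gene Myh11, smooth muscle myosin heavy chain, was at 1217 CPM in cluster 23 of the inhibitor library and 953 CPM in that of the DMSO library. Spp1, osteopontin, was at 1623 CPM in the inhibitor library and 3334 CPM in the DMSO library. Lum, lumican, which is also a fibroblast marker, was at 1525 CPM in the inhibitor library and 2504 CPM in the DMSO library.

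Without cluster 23, the rest of the smooth muscle-like class had 2352 CPM of Eln in the inhibitor library and 2910 CPM in the DMSO library, which gives a ratio of 0.808. Fbn1 was then at 156 CPM in the inhibitor library and 206 CPM in the DMSO library, Fbln5 at 442 CPM in the inhibitor library and 483 CPM in the DMSO library, and Lox at 214 CPM in the inhibitor library and 227 CPM in the DMSO library. No gene of the 10 was then called lower, with Emilin1 at a ratio of 0.707. Fbln2, at 30.7 CPM in the inhibitor library and 55.0 CPM in the DMSO library, kept a ratio of 0.559 but no longer met the condition for being measured.

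Single cells showed the same skew. With cells thinned to 2000 UMIs, the median smooth muscle-like cell held 3 Eln UMIs in the inhibitor library (3065 cells), against 4 in the DMSO library (780 cells). The 90th percentile was 10 UMIs in the inhibitor library, against 21 in the DMSO library, and the highest cell held 74 UMIs in the inhibitor library, against 184 in the DMSO library. At least 20 Eln UMIs were found in 3.10% of inhibitor cells and 10.4% of DMSO cells. The 5% of cells with the most Eln held 27.6% of its thinned UMIs in the inhibitor library, against 41.1% in the DMSO library. The libraries were close at the median and separated in the upper tail. Thinning left out 47 smooth muscle-like cells of the inhibitor library and 16 of the DMSO library as too shallow.

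**Figure D2:**
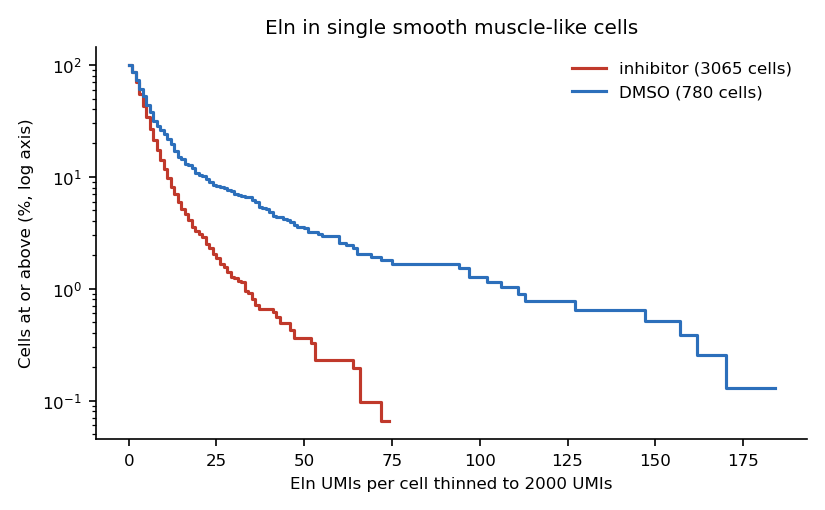
Share of smooth muscle-like cells (%, log axis) that hold at least the number of Eln UMIs on the x axis after each cell was thinned to 2000 UMIs, in 3065 inhibitor cells (red) and 780 DMSO cells (blue). The lines start together and part to the right: 3.10% of inhibitor cells and 10.4% of DMSO cells hold 20 or more, and the lines end at the highest cells, at 74 and 184 UMIs.

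In fibroblast-like cells, 3 of the 10 genes were higher in the inhibitor library and 4 were lower. Among the 6159 genes measured in this class, 4.55% were higher and 6.58% were lower. The median log2 ratio was -0.27 over the 10 genes and 0.01 over all measured genes. Eln, Fbln5 and Mfap4 were higher, of which Eln was measured through the inhibitor library only. Fbn1, Fbln2, Efemp1 and Lox were lower, and Fbln1, Emilin1 and Loxl1 stayed within 1.5-fold.

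Eln had a ratio of 1.74 (1.71 to 1.76) in fibroblast-like cells. Fbln5 had the highest ratio of the 10 genes, 2.47 (2.41 to 2.54), from 612 CPM in the inhibitor library and 248 CPM in the DMSO library. Fbln5 UMIs were found in 86.4% of inhibitor cells and 80.3% of DMSO cells, or 54.6% and 34.7% after thinning, against 7.94% and 6.17% of thinned T cell-like cells. Mfap4 had a ratio of 1.71 (1.68 to 1.74).

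Efemp1 had the lowest ratio, 0.315 (0.298 to 0.334), from 66.1 CPM in the inhibitor library and 210 CPM in the DMSO library. Its UMIs were found in 25.7% of fibroblast-like cells of the inhibitor library and 60.4% of those of the DMSO library, or 9.37% and 25.9% after thinning. The ratio was 0.592 (0.580 to 0.604) for Fbn1, 0.659 (0.644 to 0.675) for Fbln2 and 0.634 (0.616 to 0.652) for Lox. It was 1.05 (1.03 to 1.06) for Fbln1, 0.763 (0.728 to 0.800) for Emilin1 and 0.896 (0.873 to 0.919) for Loxl1. The summed smooth muscle marker list was at 1817 CPM in fibroblast-like cells of the inhibitor library and 1183 CPM in those of the DMSO library, with 4 of 9 genes higher and 1 lower. The adipocyte list was at 13.7 CPM in the inhibitor library and 135 CPM in the DMSO library. The part of these in the ratios was not tested.

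Fbln5 and Efemp1 are the fibulins at the ends of the range in fibroblast-like cells, and their promoters are shown so that the pair can be read side by side. Each window runs from 250 bases before to 50 bases after a transcript start, 5′ to 3′ on the gene's strand, from RefSeq on GRCm38.p6. Capitals mark a match to 1 of the motifs searched on both strands. These were the AP-1 site (TGANTCA), the GC box (GGGCGG, read as CCGCCC on the other strand), the TATA box (TATAAA) and the CArG box.
Fbln5, chr12:101819070-101819369, minus strand: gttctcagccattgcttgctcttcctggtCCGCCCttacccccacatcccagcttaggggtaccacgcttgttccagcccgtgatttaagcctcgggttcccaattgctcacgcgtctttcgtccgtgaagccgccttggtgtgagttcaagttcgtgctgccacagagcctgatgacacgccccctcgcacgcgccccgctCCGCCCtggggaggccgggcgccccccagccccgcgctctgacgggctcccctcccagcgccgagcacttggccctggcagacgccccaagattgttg
Efemp1, chr11:28852955-28853254, plus strand: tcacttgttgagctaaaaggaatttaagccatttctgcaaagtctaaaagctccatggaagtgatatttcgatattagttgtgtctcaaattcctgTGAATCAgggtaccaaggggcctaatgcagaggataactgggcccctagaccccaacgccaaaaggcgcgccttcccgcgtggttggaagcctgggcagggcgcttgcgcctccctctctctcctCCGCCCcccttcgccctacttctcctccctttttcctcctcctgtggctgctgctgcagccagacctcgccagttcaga
The Fbln5 window holds 2 GC boxes, at bases 30 and 203, and the Efemp1 window holds 1 AP-1 match at base 97 and 1 GC box at base 222. Among 32851 promoter windows of the same length, 7.81% hold an AP-1 match, 35.7% a GC box, 13.6% a TATA box and 1.63% a CArG box. Neither of the windows holds a TATA or CArG box match. RefSeq windows were found for 6 of the 10 genes, and a second Fbln5 start, at chr12:101818435-101818734, holds no match to the 4 motifs. Letter matches describe the sequence only.

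The fibroblast-like class also differed in its clusters. Most DMSO cells of the class (1198 cells, 60.0%) lay in cluster 3, led by Cxcl14, Saa3, Il33 and Mmp3, which held 297 inhibitor cells (16.5%). Most inhibitor cells lay in cluster 5 (834 cells in the inhibitor library, against 229 in the DMSO library), led by Fmod and Rbp4, and in cluster 6 (619 cells in the inhibitor library, against 419 in the DMSO library), led by Inmt, C7 and Clec3b. Eln and Fbln5 were high in cluster 5 and low in cluster 3, and Fbn1, Fbln2 and Efemp1 were ordered the other way.

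For Fbln5, cluster 5 had 1068 CPM in the inhibitor library and 769 CPM in the DMSO library, and cluster 3 had 238 CPM in the inhibitor library and 182 CPM in the DMSO library. Cluster 6 had 487 CPM of Fbln5 in the inhibitor library and 330 CPM in the DMSO library. The log2 ratios within clusters 3, 5 and 6 were 0.38, 0.47 and 0.56, all positive and all below the 1.30 of the class. Eln was at 2524 CPM in cluster 5 of the inhibitor library and 1659 CPM in that of the DMSO library, and at 968 CPM in cluster 6 of the inhibitor library and 583 CPM in that of the DMSO library. In cluster 3 the direction for Eln was opposite, with 647 CPM in the inhibitor library and 796 CPM in the DMSO library.

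Efemp1 kept its direction in each of these clusters. It was at 119 CPM in cluster 3 of the inhibitor library and 239 CPM in that of the DMSO library, and at 72.2 CPM in cluster 6 of the inhibitor library and 143 CPM in that of the DMSO library. In cluster 5 it was low in both, at 27.2 CPM in the inhibitor library and 32.9 CPM in the DMSO library. Fbn1 differed by less than 1.5-fold within clusters 3, 5 and 6. Cluster 3 had 1264 CPM of Fbn1 in the inhibitor library and 1172 CPM in the DMSO library, and cluster 5 had 218 CPM in the inhibitor library and 230 CPM in the DMSO library. In the small cluster 12, with 46 inhibitor and 59 DMSO cells, Fbn1 was lower, at 650 CPM in the inhibitor library and 1155 CPM in the DMSO library. Mfap4 in cluster 5 was at 1591 CPM in the inhibitor library and 1563 CPM in the DMSO library. Lox was at 362 CPM in cluster 3 of the inhibitor library and 510 CPM in that of the DMSO library. With equal weight for each cluster, none of the genes was higher in the class and 1, Efemp1, was lower.

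**Figure D3:**
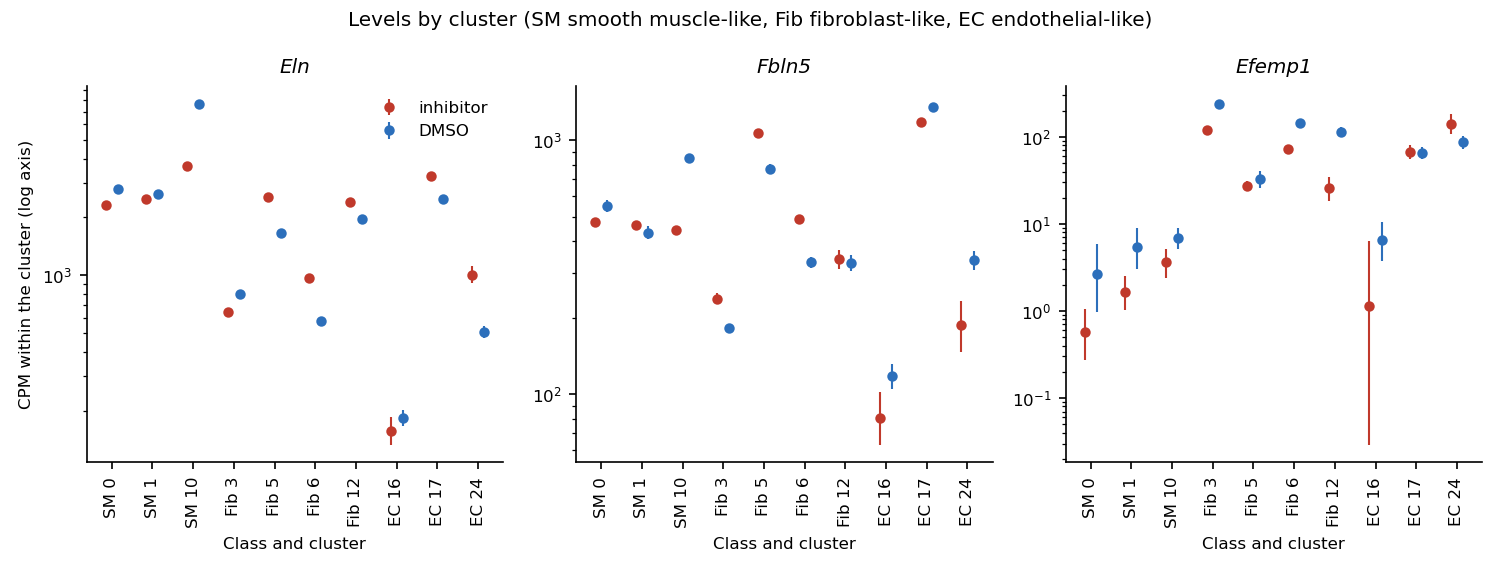
CPM (log axis) of Eln, Fbln5 and Efemp1 within each cluster of the smooth muscle-like (SM), fibroblast-like (Fib) and endothelial-like (EC) classes that has 20 or more cells in both libraries, inhibitor library in red and DMSO library in blue; bars are exact Poisson 95% intervals. Eln stands apart in smooth muscle-like cluster 10 (3650 CPM in the inhibitor library and 7672 CPM in the DMSO library), while Fbln5 is higher in the inhibitor library in fibroblast-like clusters 3, 5 and 6.

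In endothelial-like cells, 1 of the 6 measured genes, Eln, was higher in the inhibitor library and none was lower. The count of lower genes was set in part by the condition for being measured. Fbn1, Fbln1 and Loxl1, which failed it, had ratios of 0.324, 0.294 and 0.429. Eln passed it through the inhibitor library only, where it was high in this class and low in its top class, smooth muscle-like cells. Endothelial-like Fbn1 was at 44.6 CPM in the inhibitor library and 138 CPM in the DMSO library, against 17.3 CPM and 36.8 CPM in T cell-like cells of the same libraries. Neutrophil-like cells had 110 CPM of Fbn1 (11 UMIs) in the inhibitor library and 66.0 CPM (31 UMIs) in the DMSO library. Endothelial-like Fbln1 was at 19.1 CPM in the inhibitor library and 65.1 CPM in the DMSO library. T cell-like cells had 24.2 CPM (7 UMIs) and 52.1 CPM of it, so Fbln1 was near the measure of free RNA. Loxl1 had 18.5 CPM and 43.1 CPM in endothelial-like cells, against 3.46 CPM (1 UMI) and 17.1 CPM in T cell-like cells. Among the 6815 genes measured in this class, 4.68% were higher and 7.23% were lower. The median log2 ratio was 0.20 over the 6 genes and -0.01 over all measured genes. Eln had a ratio of 1.89 (1.83 to 1.95), from 2089 CPM in the inhibitor library and 1107 CPM in the DMSO library. The ratio was 1.07 (1.01 to 1.13) for Fbln2, 1.20 (1.15 to 1.27) for Fbln5, 1.10 (0.921 to 1.32) for Efemp1, 0.971 (0.849 to 1.11) for Emilin1 and 1.20 (1.05 to 1.36) for Lox. In this class the summed smooth muscle list was at 3045 CPM in the inhibitor library and 2026 CPM in the DMSO library, with 5 of 9 genes higher. The fibroblast list was at 1362 CPM in the inhibitor library and 4240 CPM in the DMSO library, with 9 of 10 genes lower. The part of these in the ratios was not tested.

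Elastin in the endothelium was concentrated in cluster 17, which is led by Cytl1, Gkn3 and Gja5, a connexin of arterial endothelium. It held 260 of the inhibitor cells and 185 of the DMSO cells, 53.0% and 23.5% of the class in those libraries. Cluster 17 had 3245 CPM of Eln in the inhibitor library and 2470 CPM in the DMSO library. Cluster 16, led by Car4 and the capillary gene Gpihbp1, held most DMSO cells and had 158 CPM of Eln in the inhibitor library and 183 CPM in the DMSO library. These levels are near the 121 CPM and 172 CPM of T cell-like cells in the same libraries, which were taken as the measure of free RNA. Cluster 24, led by Vwf and Ackr1, had 1008 CPM in the inhibitor library and 509 CPM in the DMSO library. Fbln5 followed the same order, with 1176 CPM in cluster 17 of the inhibitor library and 1354 CPM in that of the DMSO library, and 80.5 CPM in cluster 16 of the inhibitor library and 117 CPM in that of the DMSO library. Without cluster 17, Fbln2, Fbln5 and Emilin1 were lower in the class, and none was called higher, since Eln no longer met the condition for being measured.

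**Figure D4:**
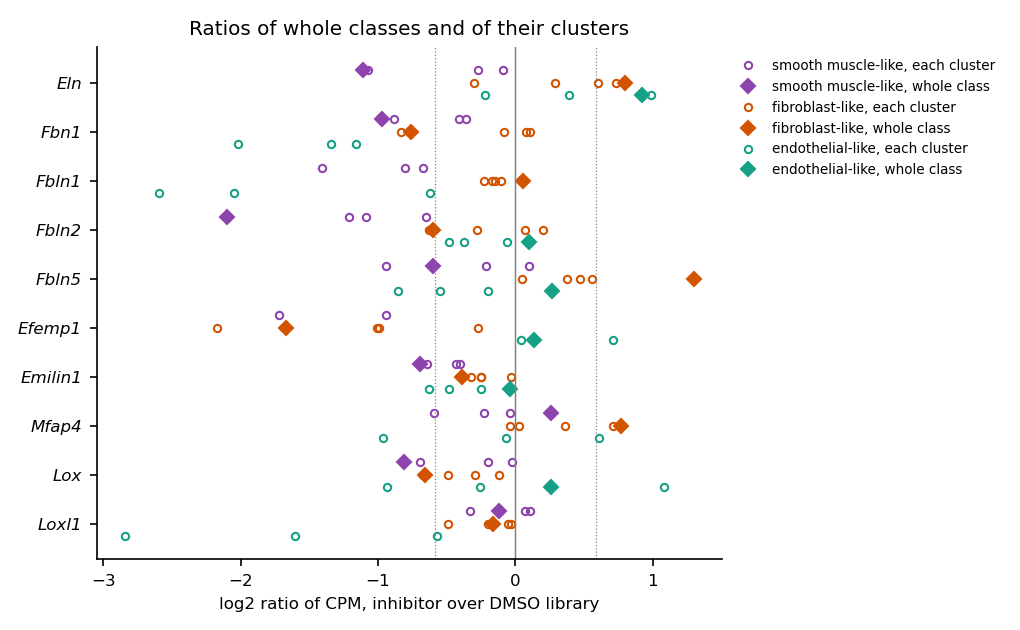
Log2 ratio of CPM, inhibitor over DMSO library, for each gene in the whole class (filled diamonds) and in each of its clusters (open circles), with smooth muscle-like cells in purple, fibroblast-like in orange and endothelial-like in green; genes not measured in a class have no diamond, a cluster is drawn with 20 or more cells per library and 20 or more UMIs of the gene over both, and dotted lines mark 1.5-fold. Eln lies at -1.11 in the smooth muscle-like class but at -0.27 and -0.09 in its clusters 0 and 1, and Fbln5 lies at 1.30 in the fibroblast-like class but between 0.05 and 0.56 in the clusters drawn.

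Over all kept cells, the levels followed the class makeup as well as the levels inside the classes. Makeup here is the share of a library's UMIs in each class, which depends on UMIs per cell as well as on cell number. Fibroblast-like cells were 24.3% of cells and 28.7% of UMIs in the inhibitor library. In the DMSO library they were 23.7% of cells and 38.5% of UMIs. Eln was at 1945 CPM over all cells of the inhibitor library and 1257 CPM over those of the DMSO library, a log2 ratio of 0.63. With both libraries weighted to the class makeup of the DMSO library the log2 ratio was -0.05, and at the makeup of the inhibitor library it was -0.75. The direction of the whole-library difference in Eln therefore depended on the makeup used. Fbln5 was at 464 CPM over all cells of the inhibitor library and 261 CPM over those of the DMSO library. Its log2 ratio of 0.83 became 0.57 at the DMSO makeup and -0.03 at the inhibitor makeup.

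Fbn1 and Mfap4 kept their direction and much of their size at each makeup. Fbn1, at 266 CPM in the inhibitor library and 463 CPM in the DMSO library, had log2 ratios of -0.80, -0.81 at the DMSO makeup and -0.84 at the inhibitor makeup. Mfap4, at 481 CPM in the inhibitor library and 277 CPM in the DMSO library, kept a positive value throughout, with 0.80, 0.70 and 0.56 in the same order. Efemp1, at 26.9 CPM in the inhibitor library and 132 CPM in the DMSO library, had -2.29, -1.25 and -1.48, so that its direction held while its size moved with the makeup. Fbln1, at 287 CPM in the inhibitor library and 385 CPM in the DMSO library, had -0.42 over all cells and lay within 0.01 of 0 at either fixed makeup. Fbln2 had values between -0.94 and -0.60, Lox between -0.72 and -0.27, and Emilin1 between -0.53 and -0.17. Loxl1 changed sign, at 0.16 over all cells, -0.15 at the DMSO makeup and -0.14 at the inhibitor makeup.

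**Figure D5:**
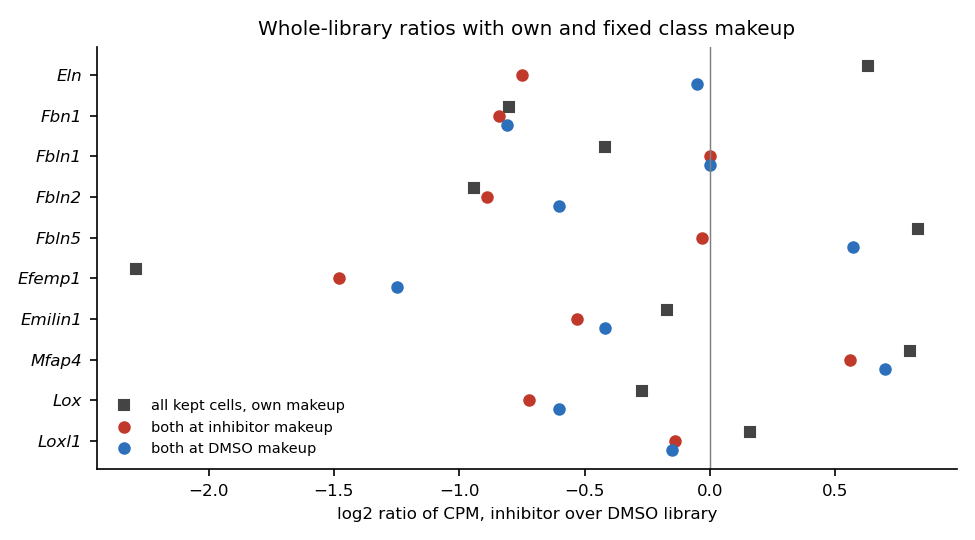
Log2 ratio of CPM over all kept cells, inhibitor over DMSO library, for each gene: with each library's own class makeup (squares), with both at the inhibitor makeup (red) and with both at the DMSO makeup (blue). Eln lies at 0.63 with the libraries' own makeup, -0.75 at the inhibitor makeup and -0.05 at the DMSO makeup, while Fbn1 stays between -0.84 and -0.80.

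Of 25 other genes of elastic fibres and microfibrils, 15 were measured in smooth muscle-like cells, and 4 were lower and none higher. Of all genes measured in this class, 5.98% were lower and 3.65% were higher. The largest differences were in Ltbp2, a latent TGF-beta binding protein found on elastic fibres, at 75.7 CPM in the inhibitor library and 251 CPM in the DMSO library, and in Loxl2, a lysyl oxidase-like enzyme, at 61.1 CPM in the inhibitor library and 116 CPM in the DMSO library. Bgn, biglycan, was at 2745 CPM in the inhibitor library and 4949 CPM in the DMSO library. Ltbp2 was also highest in cluster 10, with 180 CPM in the inhibitor library and 374 CPM in the DMSO library, and it is among the leading genes of cluster 23. The median log2 ratio was -0.18 over the 15 genes and -0.04 over all genes measured in smooth muscle-like cells.

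In fibroblast-like cells 19 of the 25 were measured, and 4 were higher and 4 were lower. Of all genes measured in this class, 4.55% were higher and 6.58% were lower. The median log2 ratio was -0.12 over the 19 genes and 0.01 over all measured genes. Adamtsl2, a secreted protein that binds fibrillin-1, was at 62.0 CPM in the inhibitor library and 14.2 CPM in the DMSO library. It is also among the leading genes of cluster 5. Fbln7 was at 122 CPM in the inhibitor library and 55.9 CPM in the DMSO library, and Adamtsl5 at 65.8 CPM in the inhibitor library and 39.7 CPM in the DMSO library. On the lower side were Fbn2, fibrillin-2, at 2.17 CPM in the inhibitor library and 24.0 CPM in the DMSO library, Vcan, versican, at 225 CPM in the inhibitor library and 400 CPM in the DMSO library, and Loxl2, at 111 CPM in the inhibitor library and 183 CPM in the DMSO library. Adamtsl2 reached 20 CPM only in the inhibitor library and Fbn2 only in the DMSO library, where each was high. Both are part of the counts and the median. In endothelial-like cells 8 were measured, and 1 was higher and 2 were lower. Of all genes measured in this class, 4.68% were higher and 7.23% were lower. Adamts10, a metalloprotease that binds fibrillin-1, was higher, at 74.3 CPM in the inhibitor library and 45.8 CPM in the DMSO library. Vcan, at 33.8 CPM in the inhibitor library and 84.4 CPM in the DMSO library, and Ltbp2, at 47.8 CPM in the inhibitor library and 73.8 CPM in the DMSO library, were lower there. Vcan was measured through the DMSO library only, where it was high. In the inhibitor library it was below 20% of its level in fibroblast-like cells.

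Likeness of pattern was described over 46 profiles, which are 23 clusters in each of the libraries, as Pearson's r of log2 levels against 12831 genes. The profiles share their libraries and the free RNA in them, and the values carry no test. The genes most like Eln were Mgp (r = 0.928), matrix Gla protein, Bgn (0.913), Pam (0.912), Pde3a (0.910) and Ccn2 (0.905). Golim4 (0.911) and Pam (0.904) were among those most like Fbln5. Efemp1 was less well matched, with Slc43a1 (0.775) among its closest genes. Among the 10 genes, Mfap4 and Loxl1 were most alike (0.91), followed by Lox and Loxl1 (0.86) and by Fbn1 and Loxl1 (0.83). Eln was closest to Fbln5 (0.81), and the least alike pair was Eln and Efemp1 (0.21).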

How the data were processed

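The authors deposited raw counts of UMIs for each gene in each barcode. Per the file headers, they came from Cell Ranger 6.1.1. The submitters' processing notes give the build as GRCm38 and also name Seurat, without a step. The chemistry was 10x 3' version 3, per the labels' protocols. The inhibitor library held 8149 barcodes and 79648307 UMIs, and the DMSO library 9125 barcodes and 101139161 UMIs; every barcode held at least 500 UMIs.

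Cells were kept with at least 200 genes (10 inhibitor and 18 DMSO barcodes removed) and at most 20% mitochondrial UMIs (282 and 443 removed). Scrublet was run at an expected doublet rate of 6%. Its automatic threshold called 440 inhibitor cells at 0.214 and 0 DMSO cells at 0.659, so, once this had been seen, 0.214 was applied to each library and removed 440 inhibitor and 253 DMSO cells. Both libraries were clustered together with scanpy 1.11.5 and igraph 0.11.9: 2000 variable genes without the listed genes and markers, scaling to 10000 UMIs, 30 principal components, 15 neighbours, Leiden resolution 1, seed 0. A class name needed at least 3 markers (in at least 20% of cells, log2 level above percentile 25 of all the others by 1 or more), a score of at least 1.5 and a median of at least 1000 UMIs. The names are marker-based, hence "-like"; 559 inhibitor and 620 DMSO cells stayed unnamed.

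UMIs of a class were summed within each library and expressed as CPM. Ratios carry exact conditional binomial 95% intervals, levels exact Poisson intervals, and shares exact Clopper-Pearson intervals. A gene was measured with at least 20 CPM in 1 library, 20 UMIs over both and 20% of the CPM of the class where it was highest; higher or lower means at least 1.5-fold. The other elastic fibre genes named are up to 3 past this fold per class and direction, by size; the genes whose pattern is like a member's are the highest by r, of which some are not reported here. Markers and cluster genes named beside the results (Spp1, Lum, Myh11) were chosen after their values were seen. Ratios were tested on simulated counts. The genes, lists and rules were chosen with earlier results of these data known. All 55450 gene rows matched GENCODE M21, the source of coordinates. The numbers of alternatives were 14 set at the start and 4 added after the data were seen.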

Additional observations from a re-analysis of the deposited data

Results flagged for a closer look

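Elastin differed in direction between cell classes. In fibroblast-like cells Eln was at 1539 CPM in the inhibitor library and 886 CPM in the DMSO library, and in smooth muscle-like cells at 2628 CPM in the inhibitor library and 5655 CPM in the DMSO library. The log2 ratio in fibroblast-like cells minus that in smooth muscle-like cells was 1.90. In endothelial-like cells the Eln log2 ratio minus that in smooth muscle-like cells was 2.02. Fbln5 also had opposite directions, and its log2 ratio in fibroblast-like cells minus that in smooth muscle-like cells was 1.90. With 1 library in each group these differences were not tested. Each rests on classes whose clusters differ between the libraries: clusters 0 and 1 in the inhibitor library against cluster 10 in the DMSO library for smooth muscle-like cells, clusters 5 and 6 against cluster 3 for fibroblast-like cells, and cluster 17 against cluster 16 for endothelial-like cells.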

How the results depend on the processing

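Of 98 counts recomputed under the alternatives, 83 stayed within 1.5 times of the reported count and 15 did not, and none of 185 ratios of genes called lower or higher changed direction. Their size did change. Without cluster 10, the log2 ratios in smooth muscle-like cells went from -0.81 to -0.04 for Lox and from -0.60 to -0.05 for Fbln5. With equal weight per cluster, that of Mfap4 in fibroblast-like cells went from 0.77 to 0.12. The 2-fold rule left 2 genes lower in smooth muscle-like cells, 1 higher and 1 lower in fibroblast-like cells, and 0 higher in endothelial-like cells. Equal weight per cluster left 3 lower in smooth muscle-like cells, 0 higher and 1 lower in fibroblast-like cells, and 0 higher in endothelial-like cells. In endothelial-like cells, 3 genes were higher by the mean over cells and 2 after thinning to 2000 UMIs, and 3 were lower with no condition on the highest class. Added after the data were seen, leaving out smooth muscle-like cluster 10, or the cells of resolution 2 cluster 23, gave 0 lower genes in that class, although Fbln2, which then failed the condition for being measured, kept a ratio of 0.559 without cluster 23 and of 0.471 and 0.636 in clusters 0 and 1. Emilin1 had a ratio of 0.707 without cluster 23, and of 0.641 in cluster 0 and 0.760 in cluster 1. Without endothelial-like cluster 17, there were 0 higher and 3 lower. Median-of-ratios scaling moved the median log2 ratio of all genes in smooth muscle-like cells by 0.12, to 0.08, and left 4 genes lower. Leaving out smooth muscle-like clusters led by fibroblast markers gave no value, since no cluster met that description. No paired analysis was possible because each group holds 1 library. Fbln1 and Efemp1 in smooth muscle-like cells, and Fbn1, Fbln1, Mfap4 and Loxl1 in endothelial-like cells, did not reach 20% of the level in their top class and were not called.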
